A study of Mus musculus with 12 samples.

Results

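The creatine cycle of brown adipose tissue was followed through 7 genes, Ckb, Ckmt1, Ckmt2, Slc6a8, Gatm, Gamt and Alpl, in brown fat of mice that were labelled as lacking the transcription factor Ebf2 in adipocytes, and of controls, with and without cold exposure. The genes were chosen by symbol as the creatine kinases other than the muscle form, the enzymes and the transporter that supply creatine, and the phosphatase Alpl. All 7 were found among the 24197 genes of the count table, and all 7 passed the filter on low counts that left 15265 genes for testing. Ckm, the muscle creatine kinase, is given beside them because its transcript marks skeletal muscle.

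The 12 libraries form 4 groups of 3. Animals of the first pair of groups were labelled Adipoq-Cre+; Ebf2 fl/fl and are referred to as labelled mutant. One of these groups spent 1 week at 4 °C and the other stayed at room temperature. Animals of the second pair were labelled Adipoq-Cre-; Ebf2 fl/fl and are the controls, again with 1 group after 1 week at 4 °C and 1 at room temperature. The controls thus carry the floxed alleles too and lack only the recombinase. All animals were 8 to 10 weeks old. Adipoq-Cre is driven by the adiponectin promoter, which is active in mature adipocytes, so the other cells of the tissue keep their Ebf2 alleles. The labels do not say that the 3 libraries of a group come from separate animals, so the p-values below refer only to how far these samples spread, and that spread may be technical. The comparisons ask how brown fat labelled Ebf2 mutant and control brown fat differ at each temperature.

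Creatine kinases move a phosphate group reversibly between ATP and creatine. Ckb encodes the brain-type cytosolic form, while Ckmt1 and Ckmt2 encode the ubiquitous and the sarcomeric mitochondrial forms. Creatine is made by GATM, which forms guanidinoacetate from arginine and glycine, and by GAMT, which methylates guanidinoacetate with S-adenosylmethionine, and cells without enough of it import it through SLC6A8. In brown and beige adipocytes, repeated phosphorylation of creatine and hydrolysis of phosphocreatine is known as a route of ATP turnover that releases heat beside UCP1. CKB has been described as the kinase of this cycle, and the alkaline phosphatase TNAP, encoded by Alpl, as the enzyme that hydrolyses phosphocreatine.

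Library totals ran from 25835650 to 37927038 counts, so that the detection floor of 3 counts lay between 0.0764 and 0.114 CPM, the count scaled by library size. Brown fat identity was checked with Ucp1, which averaged 9505 ± 3169 CPM in the cold and 1308 ± 659 CPM at room temperature in libraries labelled mutant, against 11935 ± 378 CPM and 4454 ± 1557 CPM in controls (SD, n = 3 each), and 0 of the 7 brown adipocyte markers listed was at 0 in any library. Ebf2 itself had 28.7, 21.6 and 27.0 CPM in cold libraries labelled mutant and 65.2, 45.7 and 38.3 CPM in the room temperature ones, against 52.3, 42.2 and 41.6 CPM in cold controls and 47.4, 64.1 and 31.99 CPM in room temperature controls. It was thus not lower in the room temperature libraries labelled mutant, with a log2 fold change of 0.06 ± 0.25 (SE; edgeR adjusted p = 0.931). In the cold it was -0.82 ± 0.25 and did not pass (edgeR adjusted p = 0.153), with no overlap between the groups, beside 24.8% of all genes. Within libraries labelled mutant Ebf2 was lower after cold by -0.95 ± 0.25 (edgeR adjusted p = 0.0226), beside 7.42% of all genes called lower. For controls this was -0.08 ± 0.25 (adjusted p = 0.886), and the interaction did not pass (-0.87 ± 0.35, adjusted p = 0.336). The part of this Ebf2 difference in the members' cold responses was not tested. Every direction given below for either group labelled mutant rests on its label. The labels do not say which exons are floxed, so a count over the whole gene is only a partial check of the deletion. A list of 15 skeletal muscle genes took from 0.00273% to 2.74% of all counts in a library, and passed 1% in replicate 3 labelled mutant and replicates 1 and 3 of the controls, all at room temperature. A list of 7 lens genes summed to between 0.793 and 1.32 CPM in the room temperature libraries labelled mutant, with 2 of the 7 at 0 in each, and to between 89.9 and 591 CPM in the other 9 libraries.

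The promoters of Ckb, Alpl and Gamt are shown because these are the members that passed the test for the cold response in libraries labelled mutant. They come from RefSeq on build GRCm38.p6, which held 6 of the 7 members, and each runs from 250 bases before to 50 bases after an annotated transcription start, on the minus strand of the chromosome, printed 5′ to 3′. The build differs from mm9, on which the counts were made, and no coordinate is carried over. Capitals mark matches on either strand to TATAAA and CCAAT, the core letters of the TATA and CCAAT boxes, and to TGACG, part of the cAMP response element. TATAAA and CCAAT were added to the search after these sequences had been read.
Ckb, chr12:111672289-111672588: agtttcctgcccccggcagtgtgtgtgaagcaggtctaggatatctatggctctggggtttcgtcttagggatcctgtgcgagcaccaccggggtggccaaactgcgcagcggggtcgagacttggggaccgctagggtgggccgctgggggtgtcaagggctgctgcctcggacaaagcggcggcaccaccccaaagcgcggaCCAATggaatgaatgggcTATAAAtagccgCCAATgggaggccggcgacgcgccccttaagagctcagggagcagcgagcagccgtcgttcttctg
Alpl, first start, chr4:137796335-137796634: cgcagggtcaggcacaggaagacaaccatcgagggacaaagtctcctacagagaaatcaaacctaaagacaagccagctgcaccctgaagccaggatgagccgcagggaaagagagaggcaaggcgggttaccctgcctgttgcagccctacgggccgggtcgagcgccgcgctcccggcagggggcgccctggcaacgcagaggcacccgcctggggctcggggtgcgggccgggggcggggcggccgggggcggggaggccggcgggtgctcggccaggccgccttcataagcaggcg
Alpl, second start, chr4:137766426-137766725: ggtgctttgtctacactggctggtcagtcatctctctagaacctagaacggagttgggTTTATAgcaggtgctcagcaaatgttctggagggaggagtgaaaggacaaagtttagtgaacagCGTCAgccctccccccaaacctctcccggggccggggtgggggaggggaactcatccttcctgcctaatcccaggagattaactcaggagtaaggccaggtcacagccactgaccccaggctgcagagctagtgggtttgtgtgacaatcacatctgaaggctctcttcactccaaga
Gamt, chr10:80260963-80261262: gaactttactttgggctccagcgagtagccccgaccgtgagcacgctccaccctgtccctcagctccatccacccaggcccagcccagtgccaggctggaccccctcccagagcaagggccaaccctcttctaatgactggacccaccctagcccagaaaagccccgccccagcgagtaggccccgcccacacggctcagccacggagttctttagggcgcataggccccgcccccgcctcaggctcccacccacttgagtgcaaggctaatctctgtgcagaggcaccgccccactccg

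Ckb has TATAAA beginning at position -28 from its start, and CCAAT at -46 and again at -16. Over all 32851 promoters of the table, 13.6% held TATAAA and 37.4% held CCAAT. Alpl, which is transcribed from alternative first exons, has neither in the promoter of its first start, and in that of its second start it has a reverse TATAAA at -192 and a reverse TGACG at -128, a motif found in 20.8% of all promoters. Gamt matched none of the searched motifs. With 66% G and C, the Gamt promoter is close to that of Ckb at 63% and to the first Alpl promoter at 70%, whereas the second Alpl promoter has 54.3%, near the median of 52.7% over all promoters. Of the 8 promoters of the 6 members, 0 held CCCNNGGGA, a core of the EBF binding site, which 6.56% of all promoters held, and 0 held TCAAGGTCA, TGACGTCA, GCGCATGC or CACGTG, found in 0.423%, 1.79%, 2.71% and 7.15% of all promoters. These matches describe letters in a window of 300 bases and no binding was measured.

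After a week in the cold, libraries labelled mutant had more Ckb and Alpl and less Gamt than at room temperature, 3 of the 7 members, where 17.4% of all genes tested were called in either direction, 10% higher and 7.42% lower. In controls, cold libraries had more Ckb and Alpl and less Slc6a8 than room temperature ones, again 3 of 7, where 6.62% of all genes were called, 4.31% higher and 2.31% lower. The median log2 fold change over the 7 members was -0.12 in libraries labelled mutant and -0.54 in controls, beside -0.01 in each case over all genes tested. Neither synthesis enzyme nor the transporter was called higher after cold in either genotype. Cold and room temperature values did not overlap for 3 of the 7 in libraries labelled mutant, beside 32.6% of all genes, and for 5 of the 7 in controls, beside 33.3% (18.9% higher and 14.4% lower). In libraries labelled mutant 6 of the 7 lens genes were also called higher after cold, and their part in the cold responses was not tested.

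At room temperature, libraries labelled mutant had more Gamt and less Slc6a8 and Alpl than controls, 3 of 7 members, where 6.24% of all genes tested were called, 3.92% higher and 2.32% lower. Their values did not overlap with those of controls for 5 of the 7, which adds Ckb and Ckmt1, both lower, beside 24.8% of all genes. With only the room temperature groups in the fit, none of the 3 passed (adjusted p = 0.0576 for Gamt, 0.0526 for Slc6a8 and 0.152 for Alpl). All 7 lens genes were called lower in libraries labelled mutant in this comparison, and their part in the members' results was not tested. In the cold, 0 of the 7 differed between genotypes at an adjusted p below 0.05 by edgeR, where 1.12% of all genes were called. At an unadjusted p under 0.05 there were 2, Ckb and Alpl, and DESeq2 called this pair. Only Alpl had values that did not overlap in that comparison, beside 24.8% of all genes. The cold response itself differed between genotypes, by the interaction test of edgeR, for Alpl alone, 1 of 7, where 0.478% of all genes were called. The median log2 fold change over the members was -0.59 between genotypes at room temperature and -0.11 in the cold, beside -0.04 and -0.01 over all genes, and 0.42 for the interaction, beside 0.02.

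**Figure D1:**
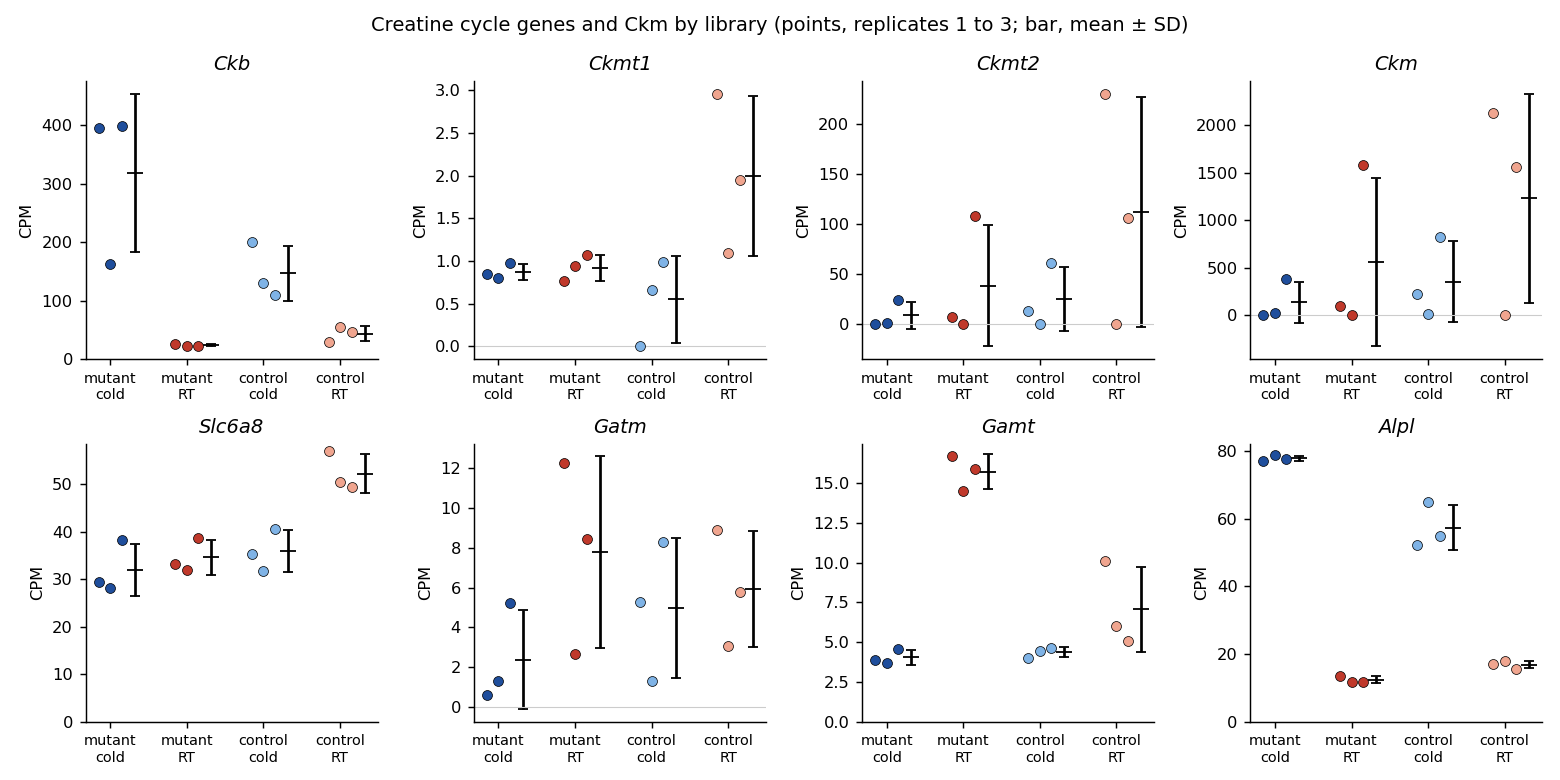
CPM on a linear axis in each of the 12 libraries for the 7 members and Ckm, by group (points, replicates 1 to 3 from left to right; bars, mean ± SD, n = 3; RT, room temperature; mutant as labelled). Ckb and Alpl lie higher in both cold groups than at room temperature, Gamt is highest in the room temperature libraries labelled mutant, and Ckmt2 and Ckm span most of their range within single groups.

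Ckb, the cytosolic kinase, had 395, 162 and 397 CPM in cold libraries labelled mutant and 25.8, 23.0 and 23.0 CPM in room temperature libraries labelled mutant. All 3 cold libraries lay above all 3 room temperature ones, with replicate 2 well below its cold partners. The log2 fold change was 3.73 ± 0.38 (SE), a 13.3-fold difference (edgeR adjusted p = 0.000169). Control libraries had 199.5, 130.5 and 109 CPM in the cold and 29.0, 54.4 and 46.0 CPM at room temperature. These groups did not overlap either, and the log2 fold change was 1.76 ± 0.35, or 3.39-fold (adjusted p = 0.0149). The interaction estimate for Ckb was 1.97 ± 0.49 and did not pass (adjusted p = 0.122), so the larger response in libraries labelled mutant was not separated from the spread, although DESeq2 called it (adjusted p = 0.00232).

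Between genotypes, the level of Ckb pointed in opposite directions at the 2 temperatures without passing edgeR's test at either. In the cold it averaged 318 ± 135 CPM in libraries labelled mutant and 146 ± 47.5 CPM in controls (SD, n = 3 each), with overlap between replicate 2 labelled mutant and replicate 1 of the controls. The log2 fold change was 1.12 ± 0.34 (edgeR adjusted p = 0.156), and DESeq2 called it (1.13, adjusted p = 0.0202). At room temperature the averages were 23.9 ± 1.65 CPM in libraries labelled mutant and 43.2 ± 12.9 CPM in controls, and the log2 fold change was -0.85 ± 0.34 (adjusted p = 0.187). The comparisons share libraries, since the same room temperature and cold groups enter both the genotype and the temperature contrasts. The cold response of Ckb in libraries labelled mutant passed in all 12 fits that left out 1 library (log2 fold change 3.53 to 4.03). In controls it no longer passed without cold control replicate 1 (adjusted p = 0.0532) or without room temperature control replicate 3 (adjusted p = 0.0558). It also failed without the 3 libraries with over 1% muscle counts (log2 fold change 1.43), a setting that leaves 1 room temperature control. With the muscle list as a covariate it passed. Without cold replicate 2 labelled mutant, both the genotype difference in the cold (adjusted p = 0.0318) and the interaction (adjusted p = 0.0266) passed.

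Alpl, the phosphatase, was the member with the tightest replicates. It had 77.2, 78.8 and 77.5 CPM in cold libraries labelled mutant and 13.5, 11.9 and 11.8 CPM in room temperature libraries labelled mutant. In control libraries it had 52.1, 64.8 and 55.0 CPM in the cold and 17.1, 18.0 and 15.7 CPM at room temperature. The 4 groups did not overlap with one another, and from low to high they ran from room temperature mutant through room temperature control and cold control to cold mutant, as labelled. The within-group SD on the log2 scale was 0.11, smaller than in all but 5.72% of genes.

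In libraries labelled mutant, Alpl was higher after cold by a log2 fold change of 2.65 ± 0.12, or 6.27-fold (edgeR adjusted p = 8.72e-07). In controls the log2 fold change was 1.76 ± 0.12, or 3.39-fold (adjusted p = 3.36e-05). Both calls passed in all 12 fits that left out 1 library. The response was larger in libraries labelled mutant by 0.89 ± 0.16 on the log2 scale (interaction, adjusted p = 0.0449). At room temperature Alpl was lower in libraries labelled mutant than in controls, by a log2 fold change of -0.45 ± 0.12 (adjusted p = 0.0411), and in the cold the log2 fold change was 0.44 ± 0.11 and did not pass (adjusted p = 0.0968). The interaction passed without cold replicate 3 labelled mutant or room temperature control replicate 1 and did not pass without any of the other 10 libraries (adjusted p 0.0399 to 0.180 over all 12). The room temperature difference passed without cold replicate 3 or room temperature replicate 1 labelled mutant and likewise failed without any of the other 10 (0.0327 to 0.192 over all 12), and with the replicate number as a block the adjusted p was 0.0621 for the interaction and 0.0564 at room temperature. Without a filter on low counts these were 0.0652 and 0.0796. Neither call passed without the 3 libraries with over 1% muscle counts (log2 fold changes 0.93 and -0.49). That setting leaves 1 room temperature control, and with the muscle list as a covariate both calls passed. Of the lens list 6 of 7 genes were called in the interaction too, beside 0.478% of all genes, and their part in it was not tested.

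**Figure D2:**
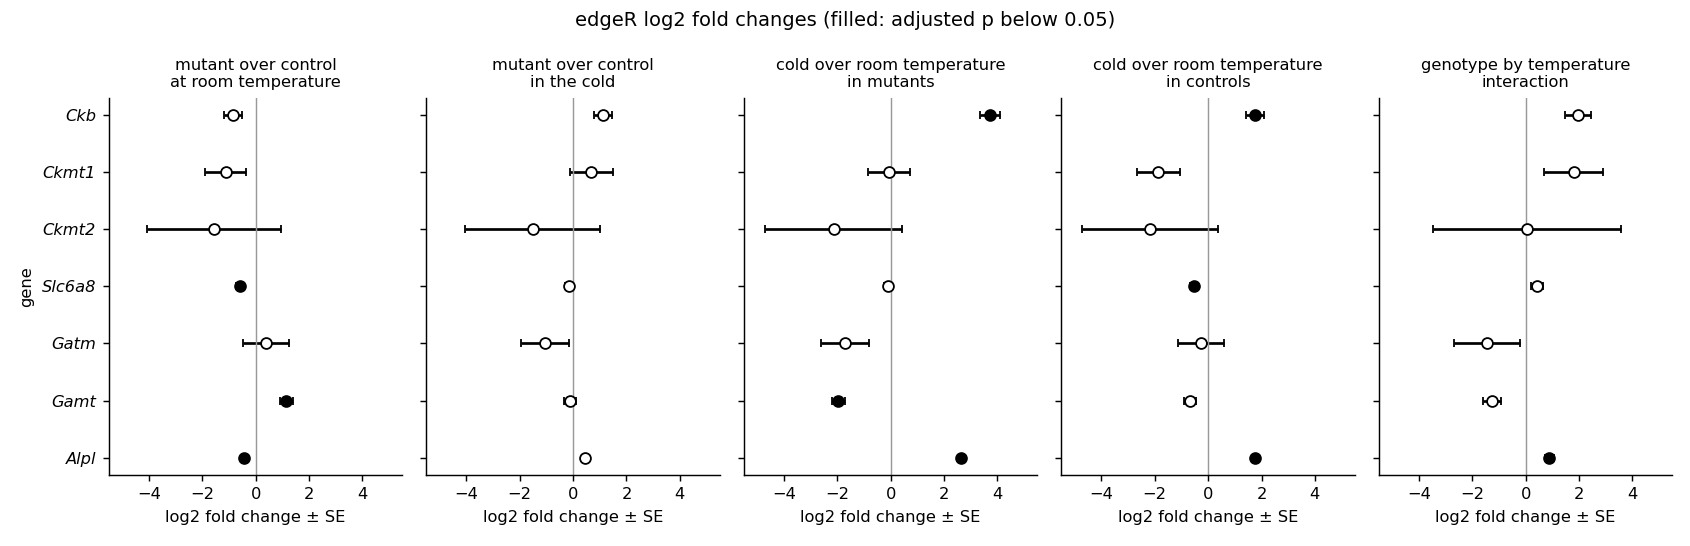
Log2 fold change ± SE (horizontal axis) of each of the 7 members (vertical axis) in the 5 comparisons, from edgeR; filled points have an adjusted p below 0.05. Ckb and Alpl stand to the right in both cold responses, Gamt stands to the left in that of libraries labelled mutant (log2 fold change -1.95), and the error bars of Ckmt2 are the widest.

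Gamt, the methyltransferase of the last step of creatine synthesis, had 3.88, 3.69 and 4.58 CPM in cold libraries labelled mutant and 16.7, 14.5 and 15.9 CPM in room temperature libraries labelled mutant. In controls it had 4.03, 4.48 and 4.65 CPM in the cold and 10.1, 6.03 and 5.06 CPM at room temperature. The room temperature libraries labelled mutant thus stood above the other 9 libraries, and the cold groups overlapped with each other. After cold, Gamt was lower in libraries labelled mutant by a log2 fold change of -1.95 ± 0.24 (edgeR adjusted p = 0.000367). In controls the log2 fold change was -0.69 ± 0.23 (adjusted p = 0.0987), with no overlap between the groups, and -0.34 (adjusted p = 0.283) without room temperature control replicate 1. At room temperature Gamt was higher in libraries labelled mutant than in controls by a log2 fold change of 1.15 ± 0.23, or 2.22-fold (adjusted p = 0.0127), and in the cold the log2 fold change was -0.11 ± 0.23 (adjusted p = 0.854). The interaction estimate was -1.27 ± 0.33 (adjusted p = 0.136). DESeq2 called both the cold difference in controls (adjusted p = 0.0456) and the interaction (adjusted p = 0.0215).

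The fall of Gamt in libraries labelled mutant passed in all 12 fits that left out 1 library (log2 fold change -2.05 to -1.91). Its room temperature difference did not pass without room temperature control replicate 3 (adjusted p = 0.0576), and without control replicate 1, the control with the most Gamt and the most muscle counts, its interaction passed (-1.62, adjusted p = 0.0126). Of 6 general adipocyte genes, 3 (Plin1, Lipe and Cidec) were called higher at room temperature in libraries labelled mutant, beside 3.92% of all genes, and 3 (Adipoq, Plin1 and Lipe) were called lower there after cold, beside 7.42%. The 7 brown adipocyte genes had medians of the other sign, -0.84 at room temperature and 1.21 after cold in libraries labelled mutant. At room temperature Ucp1 was called lower and Elovl3 higher, beside 2.32% and 3.92% of all genes. After cold in libraries labelled mutant Ucp1, Cox7a1 and Elovl3 were called higher, beside 10%. Of 5 endothelial genes, Pecam1, Cdh5 and Emcn were called higher after cold in libraries labelled mutant, and Emcn in controls, beside 10% and 4.31% of all genes. The part of these markers in the Gamt result was not tested, and in a bulk sample fewer cells of a type and less RNA per cell cannot be told apart.

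Gatm, the amidinotransferase of the first step, spread widely among the replicates of each group. It had 0.586, 1.30 and 5.20 CPM in cold libraries labelled mutant and 12.2, 2.67 and 8.43 CPM in room temperature ones. Control libraries had 5.27, 1.32 and 8.31 CPM in the cold and 8.91, 3.05 and 5.79 CPM at room temperature. All groups overlapped, and 0 of the 5 comparisons passed by edgeR, with log2 fold changes of -1.71 ± 0.89 for cold in libraries labelled mutant (adjusted p = 0.23), -0.26 ± 0.87 for cold in controls (adjusted p = 0.889), 0.39 ± 0.86 between genotypes at room temperature (adjusted p = 0.861) and -1.05 ± 0.88 between genotypes in the cold (adjusted p = 0.605). The last of these was -2.39 without cold replicate 3 labelled mutant and -0.46 without cold control replicate 3. For cold in libraries labelled mutant the unadjusted p was 0.085, and DESeq2 called 0 of the 5. That comparison passed without cold replicate 3 labelled mutant (log2 fold change -3.05, adjusted p = 0.0475) and with the muscle list as a covariate (-1.82, adjusted p = 0.0455). In every group the library with the least Gatm was also the one with the lowest skeletal muscle share. It also had the lowest summed level of the 5 smooth muscle genes in each group. The sums were 122.6 and 140 CPM in cold and room temperature libraries labelled mutant and 163 and 191 CPM in controls. In cold replicate 2 labelled mutant the sum was nearly the same, at 123.5 CPM. In room temperature libraries labelled mutant the lowest sum in replicate 2 came from Des, at 27.6 CPM against 390 CPM in replicate 3. Acta2, Myh11, Tagln and Cnn1 were instead lowest in replicate 3, at 24.7, 36.9, 31.1 and 1.82 CPM. In 3 of the 4 groups the library with the least Gatm was also the one with the lowest summed level of the 6 Schwann cell genes. That sum ran from 172 to 269.5 CPM in cold and from 221 to 542 CPM in room temperature libraries labelled mutant, and from 204 to 399 CPM in cold and from 165 to 426 CPM in room temperature controls, with 0 of the 6 genes at 0 in any library. After cold in libraries labelled mutant Mbp and Pmp22 were called lower and S100b higher, beside 7.42% and 10% of all genes. The part of these 3 lists in the Gatm values was not tested.

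Slc6a8, the creatine transporter, was highest in room temperature controls and overlapped among the other 3 groups. It had 29.4, 28.2 and 38.3 CPM in cold libraries labelled mutant and 33.2, 31.9 and 38.8 CPM in room temperature libraries labelled mutant. Control libraries had 35.4, 31.8 and 40.7 CPM in the cold and 57.0, 50.5 and 49.4 CPM at room temperature. All 3 room temperature controls stood above the other 9 libraries. At room temperature Slc6a8 was lower in libraries labelled mutant than in controls by a log2 fold change of -0.59 ± 0.15 (edgeR adjusted p = 0.0341). After cold it was lower in controls by a log2 fold change of -0.54 ± 0.15 (adjusted p = 0.0491), and in libraries labelled mutant the log2 fold change was -0.12 ± 0.15 (adjusted p = 0.642). Between genotypes in the cold it was -0.17 ± 0.15 (adjusted p = 0.617), and the interaction estimate was 0.42 ± 0.21 (adjusted p = 0.444), so the cold responses were not shown to differ. Both calls rest on the room temperature controls, which the 2 comparisons share. The genotype call was lost without room temperature replicate 1 or 2 labelled mutant or any 1 of the room temperature controls (adjusted p 0.0645 to 0.129). The temperature call held without cold replicates 2 or 3 or room temperature replicate 3 labelled mutant, and was lost without any of the other 9 libraries (0.0565 to 0.155). Among these controls are 2 of the 3 libraries with over 1% muscle counts. Without those 3 libraries neither call passed, although the log2 fold changes stayed at -0.63 and -0.49, and that setting leaves 1 room temperature control. With the muscle list as a covariate and all 12 libraries kept, both calls passed.

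Ckmt1, the ubiquitous mitochondrial kinase, was at a low level, with 20 to 108 counts in 11 libraries and 0 in the other. It had 0.847, 0.797 and 0.978 CPM in cold libraries labelled mutant and 0.764, 0.937 and 1.07 CPM in room temperature ones. In controls it had 0, 0.658 and 0.991 CPM in the cold and 2.96, 1.09 and 1.95 CPM at room temperature. In the cold control with 0 counts the floor allows up to 0.103 CPM. Room temperature controls did not overlap with the cold controls or with the room temperature libraries labelled mutant. By edgeR the log2 fold changes were -1.12 ± 0.78 between genotypes at room temperature (adjusted p = 0.483) and -1.87 ± 0.81 for cold in controls (adjusted p = 0.187), and 0 of the 5 comparisons passed. At an unadjusted p under 0.05 the cold comparison in controls was the only one, and DESeq2 called 0. The 5 epithelial genes, a list that marks cells outside fat, summed to 2.62 CPM in the cold control with 0 counts of Ckmt1 and to 24.1 CPM in the room temperature control with the most, but to 239 CPM in cold replicate 3 labelled mutant, whose Ckmt1 was at 0.978 CPM. The part of such cells in the Ckmt1 counts was not tested.

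Ckmt2, the sarcomeric mitochondrial kinase, was the member with the widest spread among replicates, in step with muscle transcripts. It had 0.423, 1.16 and 24.4 CPM in cold libraries labelled mutant and 6.72, 0 and 108 CPM in room temperature libraries labelled mutant. In controls it had 13.5, 0.329 and 60.7 CPM in the cold and 229.9, 0.109 and 105.5 CPM at room temperature. Each group holds a library at or below 1 CPM and one of at least 24.4 CPM, and the within-group SD of 4.42 on the log2 scale was larger than in 99.8% of genes. The 15-gene muscle list took 0.0185%, 0.037% and 0.623% of counts in cold libraries labelled mutant and 0.125%, 0.00354% and 1.93% in the room temperature ones, against 0.248%, 0.0192% and 0.917% in cold controls and 2.74%, 0.00273% and 1.95% in room temperature controls. Within each group the order of the libraries by Ckmt2 was the order by muscle share. Of the 15 muscle genes, 5 were at 0 in the library with 0 counts of Ckmt2 and 2 in cold replicate 1 labelled mutant.

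Ckm, which encodes the kinase of skeletal muscle and heart, had 0, 23.6 and 384 CPM in cold libraries labelled mutant and 96.0, 0 and 1584 CPM in room temperature ones, against 223, 11.3 and 826 CPM in cold controls and 2128, 0.218 and 1559 CPM in room temperature controls. In the 9 libraries with at least 342 Ckm counts, Ckmt2 had between 29.2 and 108 counts per 1000 counts of Ckm. Where Ckm was at 0, Ckmt2 had 13 counts in cold replicate 1 labelled mutant and 0 in room temperature replicate 2 labelled mutant, and room temperature control replicate 2 had 3 counts of Ckmt2 and 6 of Ckm. By edgeR 0 of the 5 comparisons of Ckmt2 passed, also at an unadjusted p under 0.05 and by DESeq2, with log2 fold changes between -2.17 ± 2.56 for cold in controls and 0.05 ± 3.51 for the interaction. With the muscle list as a covariate the log2 fold changes of the 4 comparisons between groups lay between -0.41 and -0.19, and 0 passed. Without the 3 libraries with over 1% muscle counts the estimate turned to 4.93 between genotypes at room temperature and to 7.78 for cold in controls, again without passing (adjusted p = 0.727 and 0.467).

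**Figure D3:**
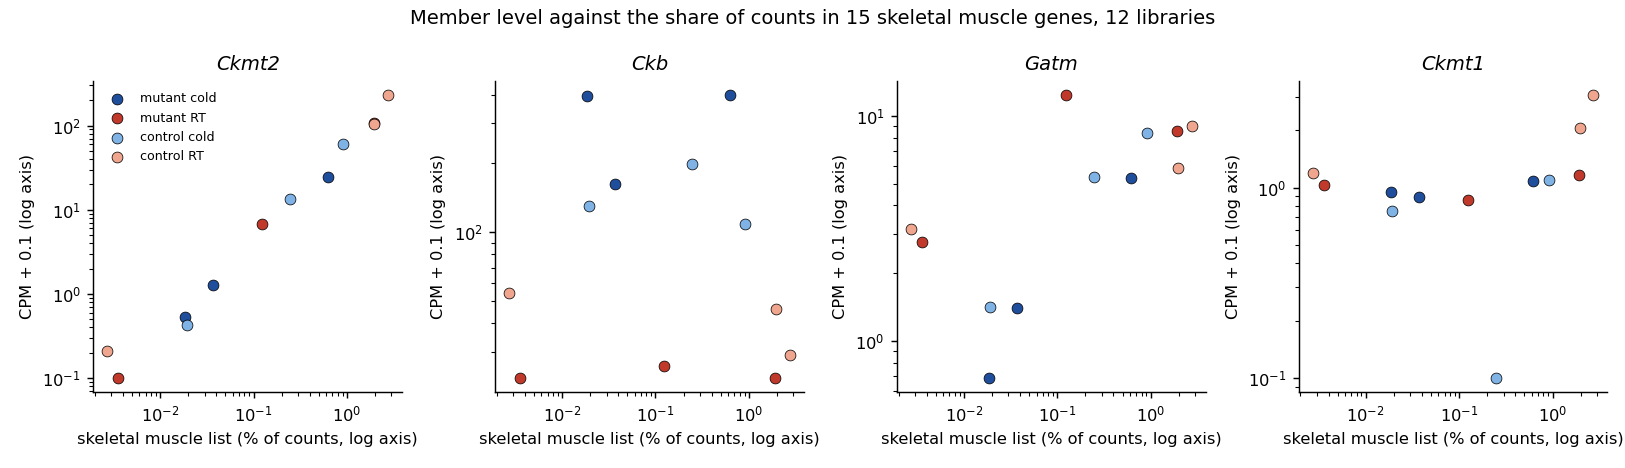
CPM + 0.1 (log axis) of Ckmt2, Ckb, Gatm and Ckmt1 in the 12 libraries against the percent of counts in 15 skeletal muscle genes (log axis), coloured by group (RT, room temperature; mutant as labelled). Ckmt2 climbs with the muscle share across all groups, from 0 where the share is 0.00354% to 229.9 CPM where it is 2.74%, whereas Ckb is at 109 CPM or more in the 6 cold libraries and at 54.4 CPM or less in the 6 at room temperature.

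Since levels can be compared between genes only per length, counts were also divided by the length of the gene's exons, taken from GENCODE M21 on GRCm38, and scaled to the same total within each library (TPM). In cold libraries labelled mutant, Ckb averaged 349 ± 178 TPM, above Alpl at 59.5 ± 8.89 TPM, Slc6a8 at 19.2 ± 6.43 TPM, Gamt at 8.75 ± 2.41 TPM, Gatm at 2.67 ± 3.13 TPM and Ckmt1 at 1.09 ± 0.29 TPM (SD, n = 3). Ckmt2 averaged 20.8 TPM there with a range from 0.831 to 59.4 TPM, and overlapped with its neighbours Alpl and Slc6a8. Ckb stood clear of all other members in this group, and Gatm and Ckmt1 overlapped. At room temperature in libraries labelled mutant, Gamt with 35.3 ± 2.60 TPM stood above Ckb with 26.8 ± 1.92 TPM without overlap. Then came Slc6a8 with 21.6 ± 2.31 TPM and Alpl with 9.98 ± 0.82 TPM, which overlapped with Gatm at 8.42 ± 5.24 TPM. With the length of the longest transcript in place of all exons, Ckb fell below Slc6a8 there, at 21.1 and 21.9 TPM. In cold controls Ckb averaged 142 ± 45.9 TPM, Alpl 40.1 ± 5.27 TPM, Slc6a8 19.4 ± 2.14 TPM and Gamt 8.57 ± 0.64 TPM. In room temperature controls Ckb averaged 48.9 ± 15.1 TPM and overlapped with Slc6a8 at 32.9 ± 2.56 TPM, while Gamt at 16.0 ± 6.01 TPM overlapped with Alpl at 13.8 ± 1.13 TPM. In each of these 3 groups the mean of Ckmt2 came first or second with a range that spanned most of the other members, from 0 to 235 TPM, from 0.636 to 114 TPM and from 0.244 to 505 TPM.

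Among creatine kinase transcripts, the share of Ckb per length moved with the muscle counts of the library. Ckb made up 99.5%, 85.9% and 48.0% of the summed TPM of Ckb, Ckm, Ckmt1 and Ckmt2 in cold libraries labelled mutant and 19.1%, 95.5% and 1.27% in room temperature ones, against 44.6%, 91.2% and 10.4% in cold controls and 1.12%, 97.0% and 2.55% in room temperature controls. In every group the library with the least muscle counts had the highest share of Ckb, and these 4 libraries held between 91.2% and 99.5%. Ckm is both a term of this share and 1 of the 15 muscle genes, so the relation is partly built in. The summed TPM was lowest at 26.9 in room temperature replicate 2 labelled mutant and highest at 2924 in room temperature control replicate 1. Ckmt1 reached 4.51% in the first of these and stayed at or below 2.25% in the other 11 libraries. These shares come from 3 libraries against 3, and no test was run on them.

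**Figure D4:**
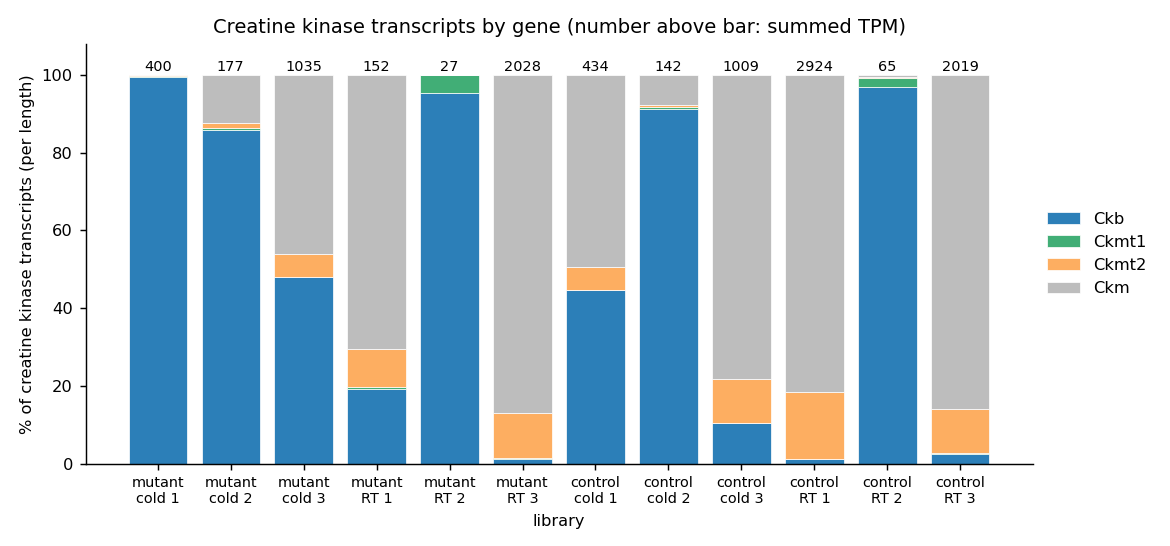
Percent of the summed per-length level of the 4 creatine kinase genes (vertical axis, linear from 0) taken by each in every library, with the summed TPM above each bar (RT, room temperature; mutant as labelled). Ckb takes 85.9% or more in the 5 libraries with the lowest Ckm and Ckm takes most in the libraries rich in muscle counts.

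The phosphatases and phosphate-handling genes around Alpl were mostly silent. Of 6 genes listed, 5 were in the table and 2 were tested, Phospho1 and Enpp1. Alpi, the intestinal alkaline phosphatase, stayed between 0 and 0.122 CPM, and Akp3 and Alppl2 were at 0 in all 12 libraries. Phospho1, a phosphatase of phosphocholine and phosphoethanolamine that acts with TNAP in bone mineralisation, had 2158, 2618 and 1380.5 CPM in cold libraries labelled mutant and 361, 346 and 323 CPM in room temperature ones, against 1813, 1565 and 1625 CPM in cold controls and 525, 546 and 516 CPM in room temperature controls. After cold, Phospho1 was higher in libraries labelled mutant by a log2 fold change of 2.58 ± 0.21 (edgeR adjusted p = 5.09e-05) and in controls by 1.66 ± 0.21 (adjusted p = 0.00148), and its interaction estimate of 0.92 ± 0.28 did not pass by edgeR (adjusted p = 0.211) but was called by DESeq2. Between genotypes 0 of the 2 tested genes were called by edgeR, beside 6.24% of all genes at room temperature and 1.12% in the cold. Phospho1 had a log2 fold change of -0.62 ± 0.20 at room temperature (edgeR adjusted p = 0.0942), where DESeq2 called it lower. Phospho1 was also the gene whose pattern over the 12 libraries was nearest to that of Alpl. Phospho1 overlaps with exons of Zfp652 on the same strand and of Abi3 on the other strand in GENCODE M21. These overlaps add up to 3526 bases, with a base shared with both genes counted for each, where Phospho1 has 2029 exon bases in all. How the counts treated shared reads and strand is not given, so the reads of these genes cannot be told apart where they overlap. The same holds for 10 exon bases that Ckmt1 shares with Strc and 84 that Ckmt2 shares with an antisense gene, each on the other strand, while the exons of the other 5 members overlap with no other gene.

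Genes that supply methyl groups and amino acids to creatine synthesis were called in both directions. Of 17 listed, 14 were tested. At room temperature, libraries labelled mutant exceeded controls for 2 of them and fell below for 1, beside 6.24% of all genes called. Phgdh, the first enzyme of serine synthesis, had 90.0, 90.3 and 127.8 CPM in room temperature libraries labelled mutant, against 41.7, 44.1 and 31.8 CPM in controls (log2 fold change 1.39 ± 0.25, edgeR adjusted p = 0.00747). Psat1, the next enzyme of that pathway, was also higher (1.64 ± 0.38, adjusted p = 0.0261), and Shmt1, the cytosolic serine hydroxymethyltransferase, was lower (-1.07 ± 0.20, adjusted p = 0.00764). After cold, the calls in libraries labelled mutant were 4 upward and 1 downward, beside 17.4% of all genes, and in controls 2 upward and 2 downward, beside 6.62%. Phgdh fell to 22.4, 14.99 and 24.1 CPM in cold libraries labelled mutant (log2 fold change -2.32 ± 0.26, adjusted p = 0.000223), and to 11.5, 20.01 and 11.6 CPM in cold controls (-1.45 ± 0.26, adjusted p = 0.00806). Gnmt, which uses S-adenosylmethionine to methylate glycine, was higher after cold in libraries labelled mutant (1.53 ± 0.30, adjusted p = 0.00507) and in controls (1.27 ± 0.30, adjusted p = 0.0274), and so was Psph, the last enzyme of serine synthesis. The median log2 fold change over the 14 was -0.05 between genotypes at room temperature, 0.11 for cold in libraries labelled mutant and -0.24 for cold in controls, beside -0.04, -0.01 and -0.01 over all genes tested. Between genotypes in the cold edgeR called 0 of the 14, beside 1.12% of all genes, with 2 at an unadjusted p under 0.05 and 0 by DESeq2. In the interaction edgeR called 0, beside 0.478% of all genes, with 2 at an unadjusted p under 0.05 and Shmt1 by DESeq2.

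Among 5 other transporters of creatine or of related amino acids and osmolytes, all tested, Slc6a6, the taurine transporter, had 269, 312 and 315 CPM in cold libraries labelled mutant and 179, 187 and 205 CPM in room temperature ones, against 281, 309 and 323 CPM in cold controls and 153, 117 and 159 CPM in room temperature controls. It was higher after cold in both genotypes, by log2 fold changes of 0.65 ± 0.14 in libraries labelled mutant (edgeR adjusted p = 0.00884) and 1.09 ± 0.14 in controls (adjusted p = 0.00206), where Slc6a8 was not higher in either. Slc6a13, a transporter of GABA and taurine, was higher at room temperature in libraries labelled mutant than in controls (1.65 ± 0.39, adjusted p = 0.0256) and lower there after cold (-1.47 ± 0.38, adjusted p = 0.0217). Slc16a12, a creatine transporter of the monocarboxylate family, was not called in any comparison (adjusted p 0.611 to 0.941). Between genotypes in the cold 0 of the 5 were called by edgeR, beside 1.12% of all genes, with Slc6a13 at an unadjusted p under 0.05 and called by DESeq2. In the interaction 0 were called by either tool or at that unadjusted p, beside 0.478% of all genes called by edgeR. The median log2 fold change over the 5 was 0.41 between genotypes at room temperature and 0.50 in the cold, beside -0.04 and -0.01 over all genes. For cold it was -0.11 in libraries labelled mutant and -0.49 in controls, beside -0.01 in each case.

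A list of 11 genes covered adenylate kinases and adenine nucleotide exchange, which together with creatine kinases balance ATP and ADP. Of these 11, 0 were called by edgeR between genotypes, beside 6.24% of all genes at room temperature and 1.12% in the cold. At an unadjusted p under 0.05 there were 4 at room temperature and 1 in the cold, and DESeq2 called 1, Slc25a4, at room temperature and 0 in the cold. Slc25a4 had 360, 303 and 659 CPM in room temperature libraries labelled mutant and 1023, 501 and 852 CPM in room temperature controls. These groups overlapped, and within each the order of the libraries was that of the muscle share. The part of muscle in this call was not tested. Ak4, a mitochondrial matrix adenylate kinase, was higher after cold by a log2 fold change of 2.12 ± 0.31 in libraries labelled mutant (edgeR adjusted p = 0.000858) and 2.28 ± 0.31 in controls (adjusted p = 0.00213). Slc25a5, an ADP/ATP carrier of the inner mitochondrial membrane, was higher after cold in libraries labelled mutant (0.67 ± 0.18, adjusted p = 0.0274). These calls were 2 of 11 in libraries labelled mutant and 1 of 11 in controls, beside 10% and 4.31% of all genes called higher. The median over the 11 was 0.32 for cold in libraries labelled mutant and 0.16 for cold in controls, beside -0.01 in each case over all genes. Between genotypes it was -0.16 at room temperature and 0.02 in the cold, beside -0.04 and -0.01.

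**Figure D5:**
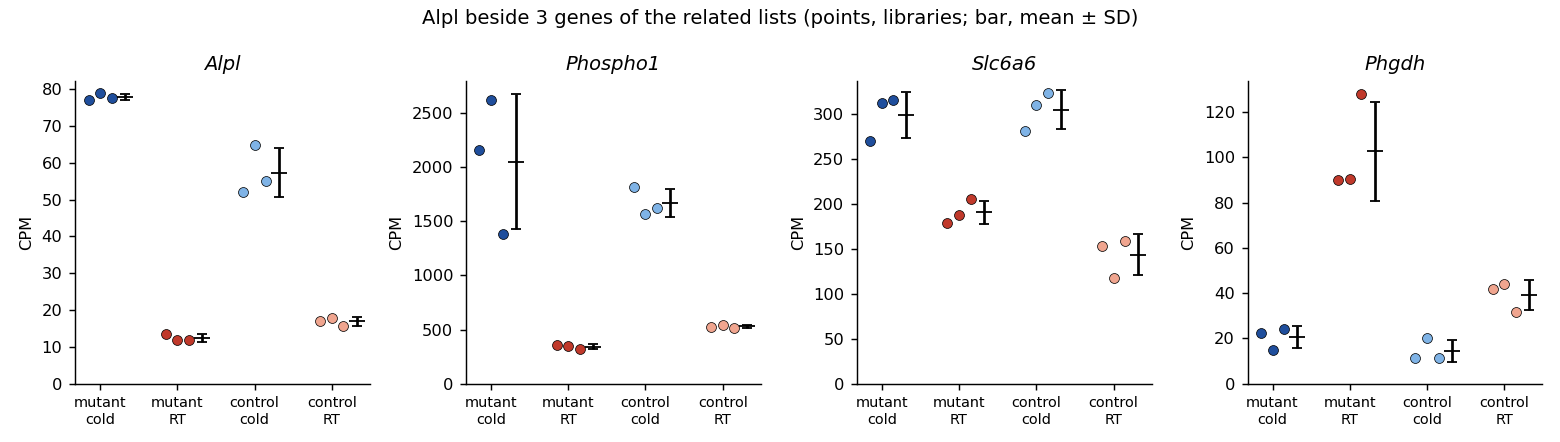
CPM (linear axes) of Alpl beside Phospho1, Slc6a6 and Phgdh in each library by group (points, replicates 1 to 3; bars, mean ± SD, n = 3; RT, room temperature; mutant as labelled). Alpl, Phospho1 and Slc6a6 lie higher in both cold groups, and Phgdh is highest in the room temperature libraries labelled mutant, at 90.0 CPM or more.

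The genes whose pattern was most like that of each member were found by the root-mean-square difference of log2 CPM, centred on each gene's mean over the 12 libraries, among 12333 genes with a mean of at least 1 CPM. For Alpl these were Phospho1 at 0.25, Abi3 at 0.26 and Rundc3a at 0.31, where the median gene stood at 1.17. Phospho1 and Abi3 overlap in their exons and may share reads, so they need not be separate matches. Rundc3a had 52.8 ± 3.56 CPM in cold and 9.90 ± 1.33 CPM in room temperature libraries labelled mutant, against 31.8 ± 5.35 CPM and 9.74 ± 1.41 CPM in controls. For Ckb they were Fgf9, a fibroblast growth factor, at 0.37, Sult5a1 at 0.44 and Hpdl at 0.46, where the median was 1.52. Hpdl had 44.1 ± 4.58 CPM in cold and 2.83 ± 1.29 CPM in room temperature libraries labelled mutant, against 16.0 ± 2.87 CPM and 5.56 ± 1.09 CPM in controls (SD, n = 3 each).

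Gamt had the closest match of all, Mcam, a cell adhesion molecule of vessels, at 0.11, followed by Cacng7 at 0.20 and Lgals12, a galectin of adipocytes, at 0.24, where the median was 0.86. Mcam had 51.4 ± 2.87 CPM in cold and 194 ± 13.1 CPM in room temperature libraries labelled mutant, against 53.0 ± 7.94 CPM and 80.3 ± 22.0 CPM in controls. Slc6a8 was matched by Samd1, Zbtb1 and Kbtbd7, each at 0.14, where the median was 0.45. Ckmt2 was matched by Cox6a2, a subunit of cytochrome c oxidase found in muscle, at 0.42, Scn4a, the sodium channel of skeletal muscle, at 0.55 and Ampd1, the AMP deaminase of skeletal muscle, at 0.62, where the median was 3.92. Gatm was matched by Prx, a protein of myelinating Schwann cells, at 0.48, Sfrp5 at 0.50 and Mgat3 at 0.51, with a median of 1.30. The nearest genes to Ckmt1 were Zg16, Dmbt1 and Muc13, which are known from the intestinal lining, at 0.59, 0.68 and 0.70, with a median of 1.32. All 12 libraries enter each of these distances together with their group differences, so they describe likeness in these samples and carry no test.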

How the data were processed

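RNA of brown adipose tissue was sequenced in 12 libraries. Per the submitters' processing notes, the authors aligned reads with STAR to build mm9 and counted them per gene with featureCounts, and the deposited values are raw counts. Per the labels' protocols, total RNA was made into libraries with a NEBNext Ultra kit by Novogene. Not given in the sources used here are tool versions, the annotation, strandedness and multi-mapping rules. The floor of 3 counts covers counting error only, whereas SD and SE include the spread between libraries.

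Counts were tested in R 4.3.3 with edgeR 4.0.16. After filterByExpr (minimum count 10, minimum total 15), TMM scaling and the robust quasi-likelihood F-test used all 12 libraries with 1 coefficient per group. Two-sided p-values were adjusted over 15265 genes with the Benjamini-Hochberg method, a gene is called below 0.05, and the SE is the one implied by the F statistic. CPM uses TMM-scaled totals. TPM uses union exon lengths of GENCODE M21, found for 95.3% of the genes. The scripts were tested on simulated data. Alternatives were RLE size factors, DESeq2 1.42.0, no filter, a stricter filter (1 CPM in 3 libraries), only the groups compared, a replicate block, a muscle covariate, and leaving out libraries.

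The members, the gene lists and the 1% muscle threshold were chosen with earlier results of these data known. All 7 members are named in each comparison, with up to 3 called genes per list (largest fold change) and the 3 genes nearest in pattern, leaving out unnamed gene models and genes under 1 CPM. A prior count of 2 was used for these distances. No pair of replicates was 1 library deposited again (chi-square per degree of freedom 40.6 to 249).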

Additional observations from a re-analysis of the deposited data

Results flagged for a closer look

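The cold response of Alpl passed a test of its difference between genotypes, a call that did not hold under several alternatives. The log2 fold change with cold was larger by 0.89 ± 0.16 in libraries labelled mutant than in controls (edgeR interaction, adjusted p = 0.0449). All 3 cold libraries labelled mutant lay above all 3 cold controls, beside 12.9% of all genes. All 3 room temperature libraries labelled mutant lay below all 3 room temperature controls, beside 11.9% of all genes. The estimate stayed between 0.82 and 1.01 when any 1 library was left out, and the adjusted p then ran from 0.0399 to 0.180, not passing without 10 of the 12 libraries. With the replicate number as a block it was 0.0621 and without a filter on low counts 0.0652. The call was also lost without the 3 libraries with over 1% muscle counts, which leaves 1 room temperature control. It held with the muscle list as a covariate. The same interaction was called for 6 of the 7 lens genes, beside 0.478% of all genes, and their part in the Alpl result was not tested.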

How the results depend on the processing

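Of the member results under the alternatives, 615 kept their direction and their side of the threshold, 49 lost a call, 10 gained one and 19 changed sign, all of the last for Ckmt2, Ckmt1 or Gatm and none of them called. The cause was not tested.

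At room temperature, 952 genes and 3 members were called between genotypes, against 1651 genes by DESeq2, 552 genes and 0 members with only the groups compared, and 298 genes and 1 member without the 3 libraries rich in muscle counts. Leaving out 1 library gave 395 to 1512 genes and 0 to 3 members. In the cold, 171 genes and 0 members were called between genotypes, against 717 genes and 2 members by DESeq2 and 102 genes with only the groups compared, and 28 to 203 genes and 0 to 1 members without 1 library. For cold in libraries labelled mutant, 2663 genes were called, against 1633 with only the groups compared and 1466 to 3630 without 1 library. For cold in controls, 1010 genes and 3 members were called, against 1951 genes by DESeq2, 338 genes and 1 member without the libraries rich in muscle counts, and 313 to 1795 genes and 1 to 3 members without 1 library. In the interaction, 73 genes and 1 member were called, against 436 genes and 3 members by DESeq2, 0 members without a filter, 0 without the libraries rich in muscle counts, and 13 to 204 genes and 0 to 2 members without 1 library.

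Whether replicate numbers pair the samples is unsettled, since same-numbered deviations correlated above 0.1 in all 3 pairs for different comparisons on different log scales. The replicate block called 34 genes and 0 members in the interaction, with Alpl at an adjusted p of 0.0621, and 0.0564 for Alpl at room temperature, and changed no other member call.

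The Ckmt2 estimate turned to 4.93 between genotypes at room temperature, 1.34 for cold in libraries labelled mutant, 7.78 for cold in controls and -6.44 in the interaction without the libraries rich in muscle counts, and to -0.20 in the interaction with the muscle covariate. That setting without 3 libraries leaves 1 room temperature control, which is assumed to vary like the other groups. Without 1 library, Ckmt2 ranged from -4.98 to 0.34 between genotypes in the cold, from -5.60 to 1.31 for cold in libraries labelled mutant and from -3.43 to 3.51 in the interaction. Ckmt1 for cold in libraries labelled mutant turned to 0.040 without the libraries rich in muscle counts and ranged from -0.20 to 0.034 without 1 library. Gatm ranged from -0.091 to 0.82 between genotypes at room temperature without 1 library, and for cold in controls it turned to 0.70 without the libraries rich in muscle counts and ranged from -0.87 to 0.17. The longest transcript in place of all exons changed every per-length level of a member, by more than 1 SD over replicates for 8 of them. In cold libraries labelled mutant Alpl then had 73.2 in place of 59.5 TPM and Ckb 274 in place of 349 TPM, and in room temperature controls Ckmt2 had 189 in place of 245 TPM. At these depths 3 counts are 0.0764 to 0.114 CPM, which limits the lowest libraries of Ckmt1 and Ckmt2.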
